A study of Saccharomyces cerevisiae with 6 samples.

Results

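The vacuolar proton ATPase (V-ATPase) is a rotary pump that uses ATP to carry protons into the vacuole and into the Golgi and endosomes. Its peripheral V1 sector hydrolyses ATP in the cytosol, and its Vo sector carries the protons through the membrane. The proton gradient drives the uptake of amino acids and metal ions into the yeast vacuole, and yeast cells release V1 from Vo when glucose runs out. The 10 subunit genes described here were taken by gene symbol from the platform annotation, out of 6248 genes and unnamed probes on the array. They are VMA2, VMA4, VMA5, VMA7, VMA8, VMA10 and VMA13 of V1, and VMA6, VPH1 and STV1 of Vo. Each was found, with 1 probe.

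Expression was measured in 3 cultures of 59A PDR8-S288c and 3 of wild type 59A, a haploid MATa derivative of the wine strain EC1118. In 59A PDR8-S288c the drug resistance regulator gene PDR8 was first deleted with a hygromycin cassette, which the PDR8 allele of the laboratory strain S288c then replaced, with a loxP-kanMX4-loxP cassette in its terminator. The strains share the rest of the 59A genome by this construction, so allele and cassette cannot be told apart, and the number of clones is not given in the sources used here. All cultures fermented a synthetic grape must (pH 3.3, 425 mg/l assimilable nitrogen) without air and were sampled in stationary phase at 66 g/l CO2 released, or 70% of fermentation progress.

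The values are log2 intensities after quantile normalization, on a scale with background at 5.3 and saturation at 16. A log2 fold change (LogFC) is 59A PDR8-S288c minus wild type, and its adjusted p comes from limma with Benjamini-Hochberg correction over the 6248 features. Pairs of arrays correlated between 0.990 and 0.999 across 4190 features measured on all 6 arrays. The array of wild type replicate 3 holds no value for 32.9% of the probes, among them those of VMA2 and STV1, which were therefore compared as 3 cultures against 2. As a check of the strains, QDR2, a multidrug transporter gene known as a target of Pdr8p, stood at 9.84, 9.96 and 9.71 in 59A PDR8-S288c, against 7.59, 7.57 and 7.68 in the wild type. PDR8 itself, whose probe can bind RNA of either allele to an unknown degree, stood at 6.76, 6.77 and 6.70 in 59A PDR8-S288c, against 7.21 and 7.26 in the wild type. Of 6 genes specific to a cells, all were above background by more than 1 log2 unit, at 6.70 to 11.46. The alpha-specific genes STE3, MF(ALPHA)1 and MF(ALPHA)2 stood at 6.00 or less on every array. The alpha-specific SAG1 stood at 7.08 to 7.33, above the a-specific AGA2 at 6.70 to 7.05. Of these 10 mating type genes 0 passed an adjusted p under 0.05 from limma, against 1.54% of all features. At an unadjusted p under 0.05 from limma there were 2, against 18.1% of all features. These were the a-specific AGA2 (LogFC -0.26) and MFA1 (LogFC -0.38).

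VMA4 was higher in 59A PDR8-S288c, and the other 9 subunit genes did not pass an adjusted p under 0.05, the threshold used here. Over all features 1.54% passed, 0.512% higher and 1.02% lower. The authors used a stricter threshold for these strains, an adjusted p under 0.01, which VMA4 did not pass. The subunit genes did not move one way. Of the 10 LogFC, 6 were above 0 and 4 below, from -0.24 for VMA13 to 0.33 for VMA2, with a median of 0.08 against 0.01 over all features. At an unadjusted p under 0.05 there were 4 higher (VMA2, VMA4, VMA5 and STV1) and 2 lower (VMA10 and VMA13), or 6 of 10, where 18.1% of all features passed (9.99% higher and 8.1% lower). The median size of a LogFC, leaving out its sign, was 0.19 for the 10 genes and 0.07 for all features. Every subunit gene stood at least 2.69 log2 units above background on every array. Of the 6248 features, 1116 had a value less than 1 log2 unit above background. The comparisons with all features were therefore not matched for level. These arrays measure the RNA of whole cultures, so fewer cells expressing a gene and less of its RNA per cell cannot be told apart.

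**Figure D1:**
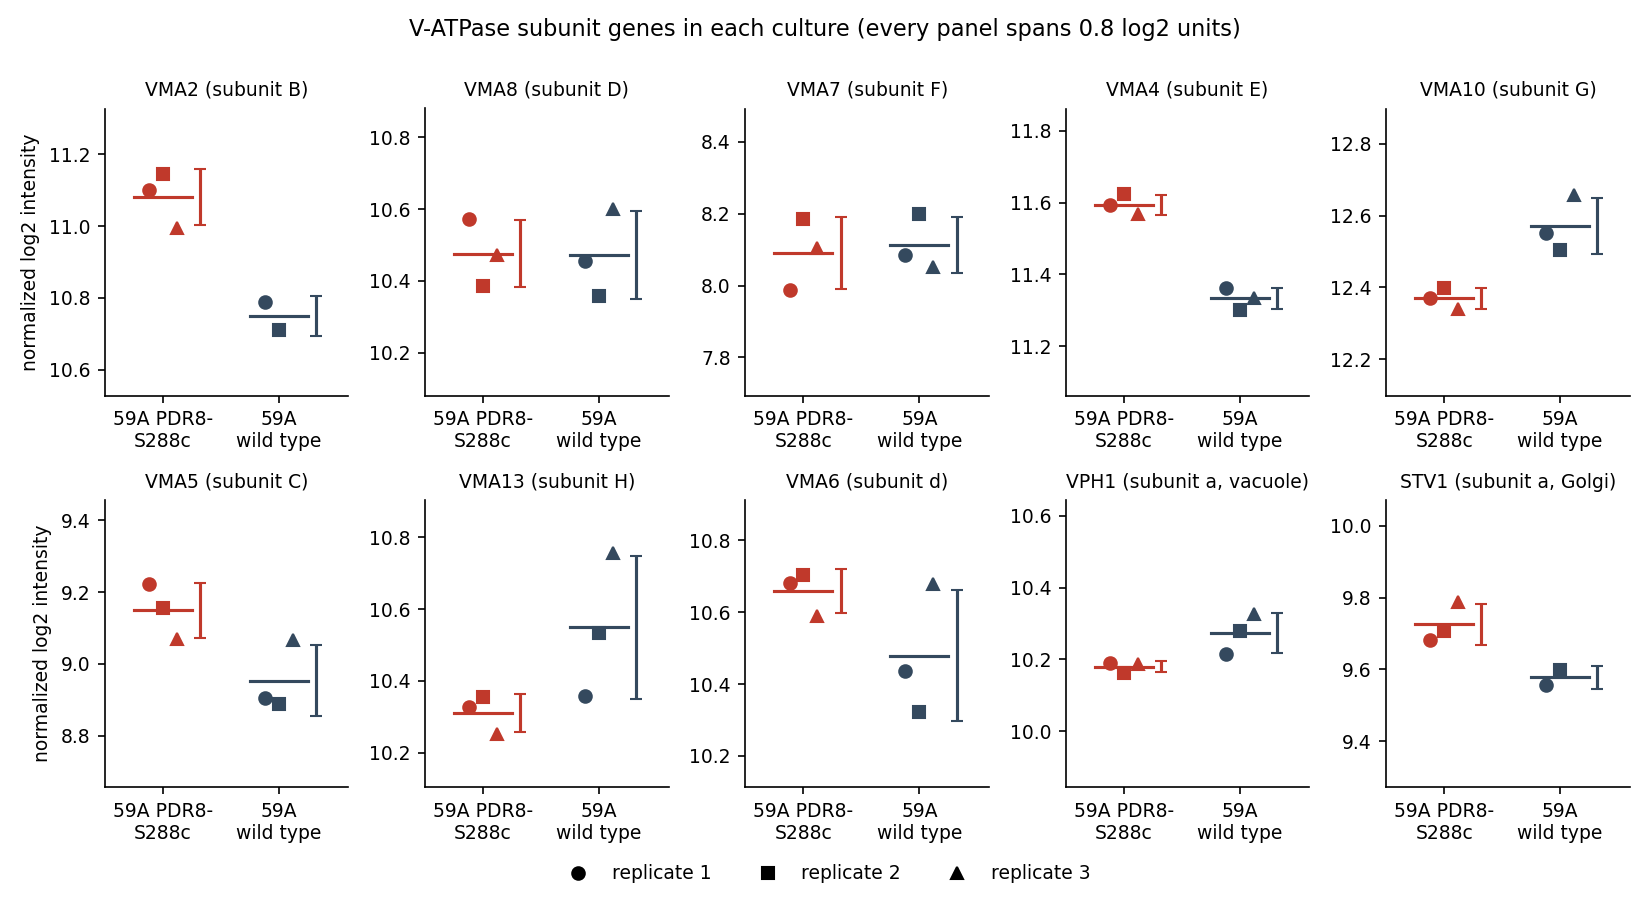
Normalized log2 intensity of each V-ATPase subunit gene (vertical axes, each spanning the same range) in the 3 cultures of 59A PDR8-S288c (left, red) and of wild type 59A (right, dark), with the strain mean as a line and the SD as a bar. VMA2 and STV1 have 2 wild type values. VMA4 sits at 11.57 to 11.62 in 59A PDR8-S288c and at 11.30 to 11.36 in the wild type, while VMA7 and VMA8 overlap.

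The catalytic head of V1 is a ring of alternating A and B subunits. VMA2 encodes subunit B, which binds nucleotide at the interface with the catalytic subunit A. Its expression was 11.10, 11.15 and 10.99 in replicates 1, 2 and 3 of 59A PDR8-S288c, against 10.79 and 10.71 in replicates 1 and 2 of the wild type. The strains did not overlap, with 0.20 log2 units between the lowest culture of 59A PDR8-S288c and the highest of the wild type. The LogFC of 0.33 was the highest of the 10 genes (SE 0.06, 95% interval 0.18 to 0.48, adjusted p = 0.0645 from limma). VMA2 passed the threshold in 1 of 15 alternative settings. This was the one with array weights (LogFC 0.32, adjusted p = 0.0427 from limma), in which 3.33% of all features passed. Without replicate 2 of 59A PDR8-S288c the LogFC was 0.30 (adjusted p = 0.231 from limma). VMA1, which encodes the catalytic subunit A and lies outside the 10 genes, stood at 11.38, 11.34 and 11.38 in 59A PDR8-S288c, against 11.40, 11.17 and 11.21 in the wild type. Here the strains overlapped, and the LogFC was 0.11 (SE 0.07, adjusted p = 0.434 from limma), with a range of -0.03 to 0.18 over the alternative settings, so that its sign changed with the processing.

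The central rotor that turns inside the head is built of subunits D and F. VMA8, the gene of subunit D, had an expression of 10.57, 10.38 and 10.47 in 59A PDR8-S288c, against 10.45, 10.36 and 10.60 in the wild type. VMA7, the gene of subunit F, had one of 7.99, 8.19 and 8.10 in 59A PDR8-S288c, against 8.09, 8.20 and 8.05 in the wild type. In both genes the strains overlapped and the spread between cultures exceeded the difference of the means. The LogFC was 0.00 for VMA8 (95% interval -0.17 to 0.18) and -0.02 for VMA7 (95% interval -0.17 to 0.13), and its sign changed for both with the processing.

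Peripheral stalks made of 1 E and 1 G subunit each hold the head still against the rotor. VMA4, the gene of subunit E, had an expression of 11.59, 11.62 and 11.57 in 59A PDR8-S288c, against 11.36, 11.30 and 11.33 in the wild type. All 3 cultures with the S288c allele lay above all 3 of the wild type, by at least 0.21 log2 units. The SD was 0.03 in either strain, and the LogFC was 0.26 (SE 0.04, 95% interval 0.16 to 0.36, adjusted p = 0.0352 from limma), or 1.20-fold. An exact permutation test gave a two-sided p = 0.1, and no lower p can come from 3 values against 3. The call of VMA4 was lost when any 1 of the 6 arrays was left out, with an adjusted p from limma between 0.0506 (without wild type replicate 3) and 0.182 (without replicate 2 of 59A PDR8-S288c) and a LogFC between 0.25 and 0.28. It was also lost with the replicate number as a block (adjusted p = 0.0809 from limma). With slide position in the model, which compares with wild type replicate 1 alone, the LogFC of VMA4 was 0.23.

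VMA10, the gene of subunit G, differed the other way. Its expression was 12.37, 12.40 and 12.34 in 59A PDR8-S288c, against 12.55, 12.50 and 12.66 in the wild type. The strains did not overlap, by 0.11 log2 units, and the LogFC was -0.20 (SE 0.05, 95% interval -0.32 to -0.08, adjusted p = 0.102 from limma). VMA10 did not pass the threshold in any of 16 alternative settings, where its LogFC was between -0.23 and -0.16.

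Subunits C and H form a collar at the membrane side of V1, where the stalks meet subunit a. Subunit C is let go by both sectors when the yeast enzyme comes apart, and subunit H keeps detached V1 from hydrolysing ATP. VMA5, the gene of subunit C, stood at 9.22, 9.15 and 9.07 in 59A PDR8-S288c, against 8.90, 8.89 and 9.07 in the wild type. Wild type replicate 3 reached the lowest culture of 59A PDR8-S288c to within 0.0030 log2 units. The LogFC was 0.20 (SE 0.06, 95% interval 0.04 to 0.35, adjusted p = 0.175 from limma). VMA13, the gene of subunit H, stood at 10.33, 10.36 and 10.25 in 59A PDR8-S288c, against 10.36, 10.53 and 10.76 in the wild type. The wild type cultures were spread over a wide range (SD 0.20, n = 3) and those of 59A PDR8-S288c were not (SD 0.05, n = 3). The LogFC of VMA13 was -0.24 (SE 0.09, 95% interval -0.46 to -0.02, adjusted p = 0.246 from limma). It was -0.33 without wild type replicate 1 and -0.13 without wild type replicate 3. With slide position in the model, which compares with wild type replicate 1 alone, it was -0.05. VMA13 passed the threshold in none of the 16 alternative settings.

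Subunits that sit side by side were also set against each other on the same array, a comparison chosen after the values had been seen. VMA4 minus VMA10 was -0.78, -0.77 and -0.77 in 59A PDR8-S288c, against -1.19, -1.20 and -1.32 in the wild type. The strain means differed by 0.46 log2 units. VMA5 minus VMA13 was -1.10, -1.20 and -1.18 in 59A PDR8-S288c, against -1.45, -1.64 and -1.69 in the wild type, with means that differed by 0.43 log2 units. In both pairs the single genes already separated the strains in opposite directions, so the strains had to separate here too, and the values are a description with no test. The level of a probe depends on its own binding, so only the difference between the strains can be read here. VMA2 minus VMA1 differed between the strain means by 0.25 log2 units, with 2 wild type values. VMA8 minus VMA7 differed by 0.03 log2 units, and the strains overlapped.

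**Figure D2:**
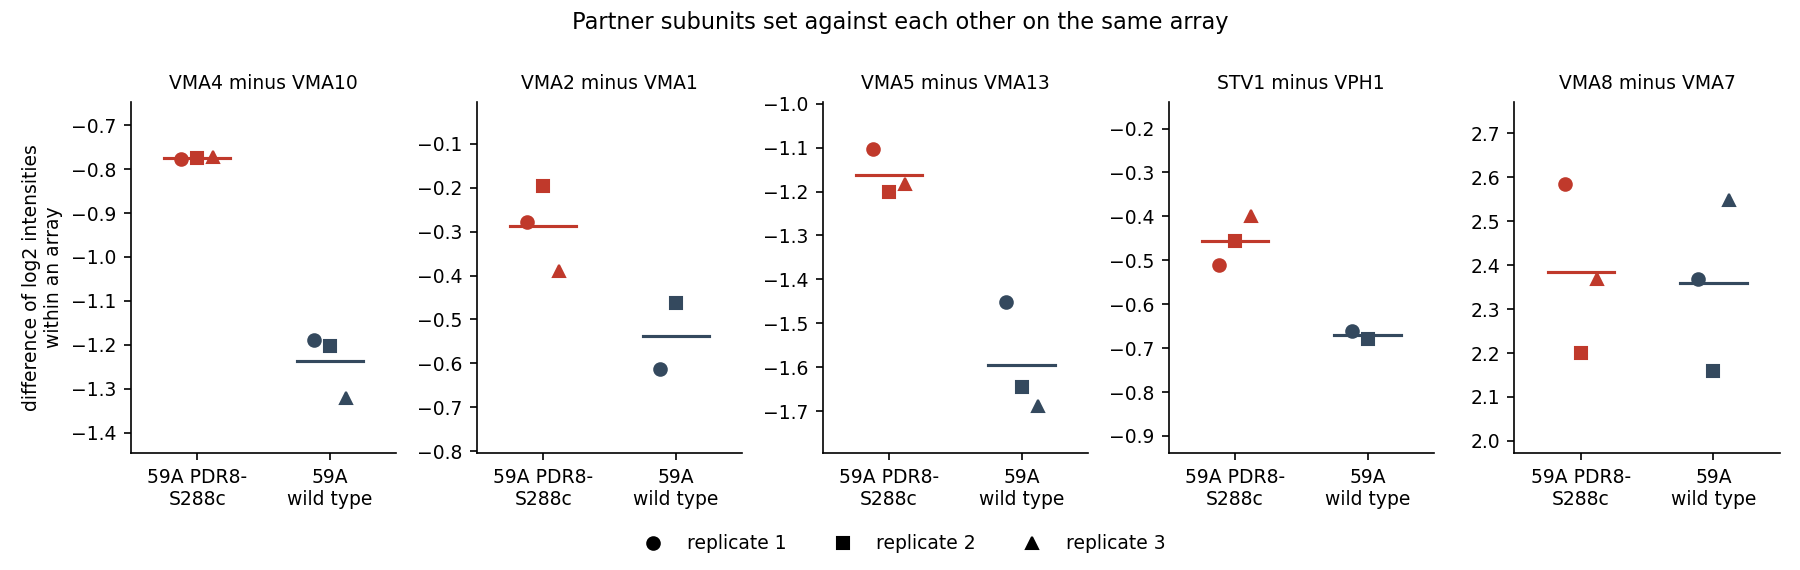
Difference of log2 intensities between partner subunit genes on the same array (vertical axes, each spanning the same range) in 59A PDR8-S288c (left, red) and wild type 59A (right, dark), with strain means as lines. VMA4 minus VMA10 and VMA5 minus VMA13 lie higher in all 3 cultures of 59A PDR8-S288c, and VMA8 minus VMA7 overlaps. Pairs with VMA2 or STV1 have 2 wild type values.

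In the membrane sector, subunit d couples the rotor to the proteolipid ring, and subunit a holds the path of the protons. VMA6, the gene of subunit d, had an expression of 10.68, 10.70 and 10.59 in 59A PDR8-S288c, against 10.44, 10.32 and 10.68 in the wild type. Wild type replicate 3 lay among the cultures of 59A PDR8-S288c, and the strains overlapped. The LogFC was 0.18 (SE 0.09, 95% interval -0.03 to 0.39, adjusted p = 0.339 from limma). It was 0.28 without wild type replicate 3 and 0.10 without wild type replicate 2.

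Subunit a is the only subunit with alternative genes in yeast. VPH1 encodes the form of the vacuole, and STV1 the form found in the Golgi and endosomes. VPH1 stood at 10.19, 10.16 and 10.19 in 59A PDR8-S288c, against 10.22, 10.28 and 10.33 in the wild type. STV1 stood at 9.68, 9.71 and 9.79 in 59A PDR8-S288c, against 9.56 and 9.60 in wild type replicates 1 and 2. In neither gene did the strains overlap, and the signs were opposite. The LogFC was -0.09 for VPH1 (SE 0.05, 95% interval -0.20 to 0.01, adjusted p = 0.327 from limma) and 0.15 for STV1 (SE 0.06, 95% interval 0.02 to 0.28, adjusted p = 0.232 from limma). With slide position in the model, which compares with wild type replicate 1 alone, the LogFC of VPH1 was -0.035. STV1 minus VPH1 was -0.51, -0.46 and -0.40 in 59A PDR8-S288c, against -0.66 and -0.68 in the wild type, or 0.21 log2 units between the means. This separation follows from the opposite signs of the single genes and was not tested.

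Of the 10 subunit genes, 7 had no overlap between the strains. Among all features this held for 24.6% of those measured on 6 arrays and for 35% of those measured on 5. VMA4, VMA5, VMA10, VMA13 and VPH1 belong to the first kind, and VMA2 and STV1 to the second. In VMA5 and VMA13 the gap between the strains was under 0.01 log2 units.

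Within a strain the subunit genes varied by an SD of 0.02 to 0.10 in 59A PDR8-S288c and of 0.03 to 0.20 in the wild type. The SD was larger in the wild type for 7 of the 8 genes measured on all 6 arrays, and for 64.8% of all features measured on 6 arrays. Wild type replicate 3 was the highest of its strain in 6 of these 8 genes, and replicate 3 of 59A PDR8-S288c was the highest in 0 and the lowest in 5. The same counts were not made over all features. Wild type replicate 3 also deviated most from its strain mean over all features measured on 6 arrays. Its root mean square deviation was 0.118, and those of the other arrays were 0.067 to 0.104. The mean level of the 8 genes was 10.37, 10.37 and 10.32 in 59A PDR8-S288c, against 10.30, 10.30 and 10.43 in the wild type, so the strains overlapped. Over the 6 arrays, the other features whose level followed this mean most closely were SUB2 (Pearson r = 0.990), YDR541C (0.985), MSS116 (0.982), SPO14 (0.977) and the unnamed probe A_06_P7138 (0.975). They are the highest of 4190 features over 6 arrays. In each the LogFC was between -0.01 and 0.02, which follows largely from picking them to match a mean that differed little between the strains.

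The other genes of the enzyme gave no call, where 1.54% of all features passed the threshold. Of 5 further subunit genes 4 were measured and named: VMA1, and the genes VMA3, VMA11 and VMA16 of the proteolipid ring that carries the protons. The array names them by the older symbols TFP1, CUP5, TFP3 and PPA1. VMA3 stood at 10.72, 10.70 and 10.64 in 59A PDR8-S288c, against 10.86, 10.84 and 10.86 in the wild type, with no overlap. Its LogFC was -0.17 (SE 0.04, adjusted p = 0.0978 from limma). That of VMA16 was 0.11 (adjusted p = 0.285 from limma), and that of VMA11, with 2 wild type values, was 0.02 and changed sign over the alternative settings (-0.01 to 0.04). The 4 genes had a median LogFC of 0.06. In 2 of them, VMA3 and VMA16, the strains did not overlap, and the gap in VMA16 was 0.02 log2 units. The share without overlap was 24.6% for all features measured on 6 arrays and 35% for those measured on 5.

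Of 10 genes for the assembly and control of the pump, 0 passed the threshold, against 1.54% of all features. At an unadjusted p under 0.05 there was 1, against 18.1% of all features, and the median LogFC was -0.04. VMA21, a chaperone of Vo assembly in the endoplasmic reticulum, had the lowest value. It stood at 8.39, 8.26 and 8.27 in 59A PDR8-S288c, against 8.46, 8.46 and 8.50 in the wild type (LogFC -0.17, SE 0.05, adjusted p = 0.132 from limma). VMA22, which acts in the same assembly step, had a LogFC of -0.11 (SE 0.06, adjusted p = 0.395 from limma), with 2 wild type values. RAV1 and RAV2, whose products join V1 to Vo again when glucose returns, had LogFC of 0.06 and -0.06. Each had an interval that included 0. The LogFC of RAV1 rests on 2 wild type values, and that of RAV2 changed sign over the alternative settings (-0.11 to 0.01).

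**Figure D3:**
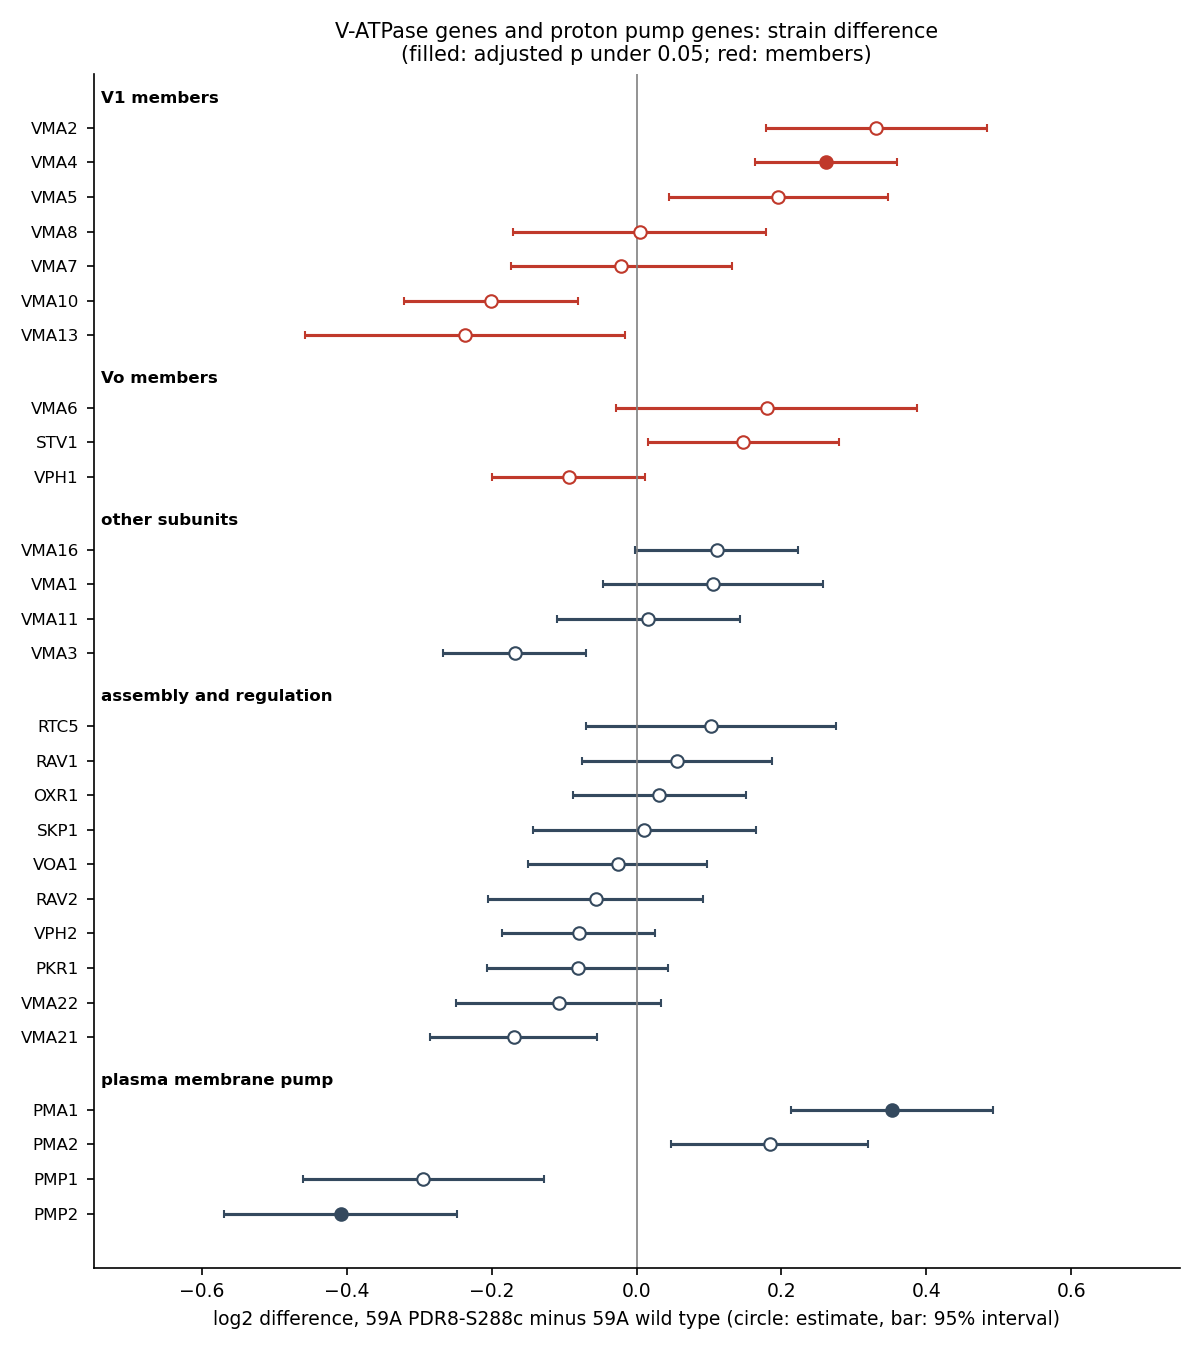
LogFC of 59A PDR8-S288c minus wild type 59A (horizontal axis, log2 units) for the subunit genes (red), the other V-ATPase genes and the plasma membrane proton pump genes (dark), with 95% intervals as bars and filled circles for an adjusted p under 0.05 from limma. VMA4 (0.26), PMA1 (0.35) and PMP2 (-0.41) are filled, and V1 holds values from -0.24 to 0.33.

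The plasma membrane has a proton pump of another kind, the P-type ATPase encoded by PMA1, and calls were found there in both directions. PMA1 stood at 13.27, 13.13 and 13.13 in 59A PDR8-S288c, against 12.87, 12.86 and 12.74 in the wild type, a LogFC of 0.35 (SE 0.06, adjusted p = 0.0384 from limma). PMP2, which encodes a small proteolipid bound to this pump, stood at 9.72, 9.73 and 9.95 in 59A PDR8-S288c, against 10.16, 10.24 and 10.22 in the wild type. Its LogFC was -0.41 (SE 0.07, adjusted p = 0.0378 from limma). Neither gene overlapped between the strains, and neither passed the authors' adjusted p under 0.01. The related PMP1 had a LogFC of -0.29 (adjusted p = 0.0879 from limma). The minor pump gene PMA2, with 2 wild type values, had a LogFC of 0.18 (adjusted p = 0.166 from limma). Of the 4 genes 1 was higher, 1 lower and 2 did not pass, against 0.512% higher and 1.02% lower over all features. The calls held in 7 of 16 alternative settings for PMA1 and in 8 for PMP2, with an adjusted p up to 0.398 and 0.397.

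Transporters that use the proton gradient of the vacuole and endosomes gave no call. Of 17 listed genes 15 were measured and named, and 0 passed the threshold, against 1.54% of all features. At an unadjusted p under 0.05 there was 1, against 18.1% of all features. The LogFC of the 15 genes were between -0.07 and 0.16 with a median of 0.03. The highest was that of VCX1, the vacuolar calcium exchanger (0.16, SE 0.10, adjusted p = 0.433 from limma). Next was CCC1, a vacuolar iron importer (0.13, SE 0.05, adjusted p = 0.275 from limma, 2 wild type values). The mitochondrial F-type ATP synthase is a related rotary enzyme that runs the other way and makes ATP. Of its 15 listed genes, inhibitors included, 0 passed the threshold, against 1.54% of all features. At an unadjusted p under 0.05 there were 6, 3 higher and 3 lower, where 18.1% of all features passed (9.99% higher and 8.1% lower). The 15 genes had a median LogFC of -0.04, with 6 values above 0 and 9 below. At the low end were ATP20 (-0.35, adjusted p = 0.0645 from limma) and ATP18 (-0.31, adjusted p = 0.084 from limma, 2 wild type values), genes of small membrane subunits. At the high end was ATP3 (0.31, adjusted p = 0.226 from limma). ATP20 passed in 2 of 16 alternative settings, with an adjusted p from limma between 0.0487 and 0.476 over all of them. Whether the V-ATPase and the F-type genes differ from each other was not tested.

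**Figure D4:**
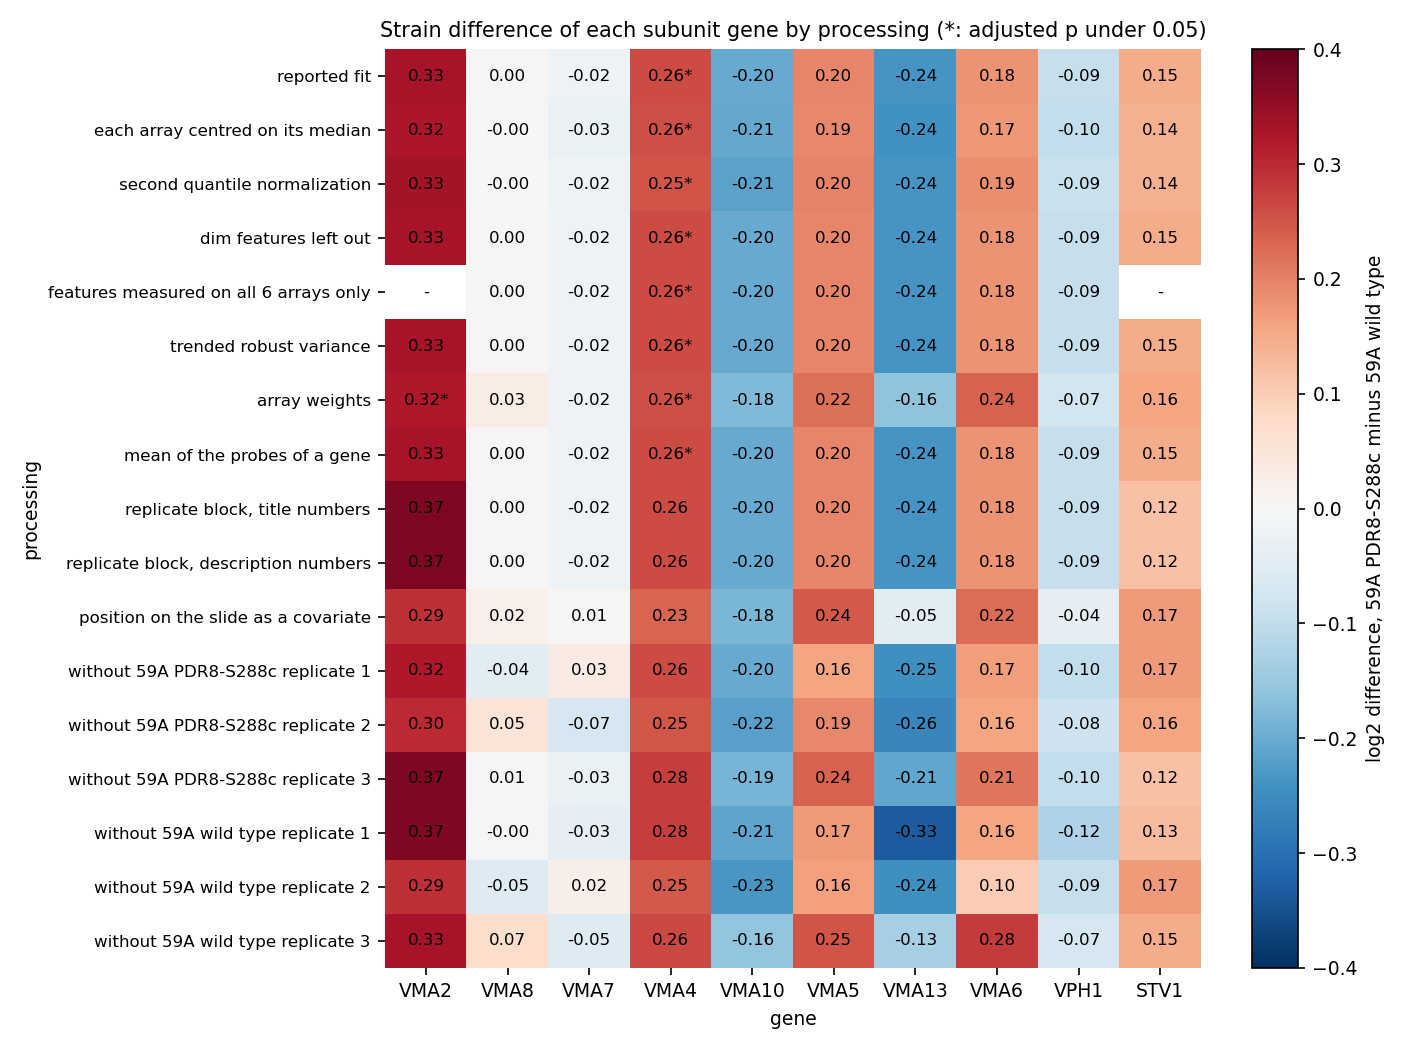
LogFC of 59A PDR8-S288c minus wild type 59A (colour and printed value, log2 units) for each subunit gene (columns) in the reported fit and under 16 alternatives (rows), with a star for an adjusted p under 0.05 from limma and a dash for a gene not in the fit. VMA4 carries a star in the reported fit and in 7 alternatives, VMA2 with array weights, and the sign changes for VMA7 and VMA8.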

How the data were processed

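The deposited values are log2 intensities: the authors scanned one-color Agilent arrays, took the spot-median signal and normalized by the quantile method (R 2.13.1 and limma, per the methods and the submitters' processing notes). By the methods, the quantile step used all arrays of the study at once, without naming these 6 among them. The number of arrays limits the precision. No scaling was added.

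The platform annotation names the gene of 5220 among the 6271 probes, and 1051 are unnamed here, so VMA9, YPQ1 and YPQ2 were not analysed. The assembly GCF_000146045.2 (R64) served for names only. No build or probe sequence was used. PPA1 was read as VMA16 because IPP1, which shares this older symbol, has its own probe. The brightest probe represented each of 22 genes with several, which left 6248 features. Both strains entered 1 linear model (lmFit and eBayes of limma 3.58.1, R 4.3.3) with no block, tested first on simulated data. There it recovered 34% of the differences of 0.25 log2 units and 80% of those of 0.5. A gene that did not pass the threshold may therefore still differ by such an amount. Samples were numbered by their titles, and 2 samples of 59A PDR8-S288c carry other numbers in their descriptions. The labels call the samples biological replicates.

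The members, lists and tests were chosen with earlier results of these data known. Named were all 10 members, and in each other list the genes past an adjusted p under 0.05 or otherwise the 2 with the largest change. QDR2 checks the strains. RAV1, RAV2, VMA1, VMA11, PMP1, PMA2 and ATP3 were added after their values were seen. Plots were drawn with matplotlib 3.10.9.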

Additional observations from a re-analysis of the deposited data

How the results depend on the processing

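The number of subunit genes past an adjusted p under 0.05 was 1, and it was 2 with array weights (VMA4 and VMA2), 0 with slide position (subarrays 1 to 4 against 5 to 8) in the model and 0 to 0 when single arrays were left out. The number of all features past it was 96, against 208 with array weights, 152 with a variance that was trended and robust, 6 with slide position, and 3 to 90 when single arrays were left out. With slide position the strain difference rests on wild type replicate 1 alone. With the replicate number as a block, 0 subunit genes and 19 features passed with the numbers of the titles, and 0 subunit genes and 3 features with those of the descriptions. Whether the replicate numbers pair the cultures cannot be decided from 3 pairs, whose deviations within a strain are not independent. The deviations of same-numbered cultures correlated at 0.17, 0.34 and -0.43 by the titles, and at -0.05, -0.69 and -0.43 by the descriptions. The median LogFC of the subunit genes was -0.0084 over the 8 measured on all 6 arrays, where VMA2 and STV1 were left out. The sign changed among the subunit genes for VMA7 (0.0056 with slide position, -0.068 to 0.032 without single arrays) and VMA8 (-0.00047 with median centring, -0.000127 with a second quantile normalization, -0.052 to 0.069 without single arrays), and 8 of the 10 genes kept their direction in every setting they were fitted in. The cause of these changes was not tested beyond what the construction of each setting gives. Every subunit gene was at least 2.69 log2 units above background, and VMA2 and STV1 had 2 wild type values.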
